A study of Mus musculus with 9 samples.

Results

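Both small interfering RNAs (siRNAs) that the study directed at Nus1, siRNA 878 and siRNA 644, were compared with each other in BV2, a mouse microglial cell line that was immortalised. The comparison used 3 libraries with siRNA 878 and 3 with siRNA 644 of the 9 libraries in the series, and the other 3 were the control, labelled NC, whose content the labels do not describe further. All 9 libraries came from otherwise wild-type BV2 cells that were exposed to the transfection mix for 24 h and kept in fresh medium with 10% serum for another 24 h, so RNA was taken at 48 h. The members are all genes of the deposited table with enough counts to be tested, 11739 of 16398. The sources used here do not give the sequences of the siRNAs, their doses or the meaning of the numbers 878 and 644. Replicates are labelled biological, with no word on separate transfections, and the p-values cover the spread between these libraries alone.

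Nus1 encodes the Nogo-B receptor, the regulatory subunit of the cis-prenyltransferase that builds the polyprenol chain of dolichol, the lipid that carries the sugar chain for protein N-glycosylation in the endoplasmic reticulum (ER). The substrate of this enzyme, farnesyl diphosphate, is also the branch point to cholesterol. An siRNA cleaves an mRNA that matches its guide strand along its length, and it can also lower other mRNAs whose 3′ untranslated regions (UTRs) match only the seed, a short stretch near the guide's 5′ end. Genes that differ between siRNAs with a shared target can therefore reflect unequal depletion of the target, effects of each sequence, or differences between cultures and libraries, and a design with 1 dose of each siRNA cannot tell these apart.

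The libraries held 19362319 to 20224705 estimated counts. One of the 6 siRNA libraries, 878 replicate 2, stood apart from its replicates. Its gene levels deviated from the mean of all 9 libraries in step with the GC content of the transcripts (Spearman rho 0.547 across genes). In 878 replicates 1 and 3 rho was −0.244 and −0.422. On the same scale, 644 replicates 1, 2 and 3 had rho values of 0.441, −0.173 and 0.335. Replicates 1 and 3 of 644 thus deviated in the same direction as 878 replicate 2. Counts of called genes, both in all and by gene list, are therefore given with and without 878 replicate 2. Without it, the 878 libraries left had negative rho, while 644 replicates 1 and 3 had positive rho. In that fit the siRNA and the deviation with GC content are partly confounded, and their parts in its calls were not tested. Of 8 markers of microglia and macrophages, all were detected, with a summed level of 1228 to 1718 FPKM in the 878 libraries, 1465 to 1695 FPKM in the 644 libraries and 1205 to 1380 FPKM in the control libraries. The 24 markers of other cell types in the table summed to 14.0 to 16.3, 15.6 to 17.6 and 18.5 to 20.99 FPKM in the same order of groups, and their part in the results was not tested. Most of each sum was the single gene Cnp, at 11.7 to 13.75, 11.85 to 13.68 and 15.58 to 17.84 FPKM. In bulk RNA, fewer cells of a kind and less RNA per cell cannot be told apart.

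Nus1 itself had a higher mean with siRNA 878 than with siRNA 644, by a difference that passed the test under some settings only. Its level, in counts scaled to a common normalised library size (CPM), was 8.01, 3.73 and 8.35 in 878 replicates 1 to 3, against 3.93, 4.15 and 3.46 with 644 and 51.4, 50.1 and 53.4 in control. All knockdown libraries lay far below control, and 878 replicate 2 lay within the range of the 644 libraries while its replicates lay above it. The means were 6.70 ± 2.58 CPM with 878 and 3.85 ± 0.351 CPM with 644 (SD, n = 3 each). The log2 difference, siRNA 878 minus siRNA 644 as everywhere below, was 0.80 (SE 0.263) and did not pass the edgeR quasi-likelihood test (adjusted p = 0.180, with the adjustment of Benjamini and Hochberg). Without 878 replicate 2 it was 1.10 and passed (adjusted p = 0.00112), and with GC and length offsets, which correct each library for the GC content and length of transcripts, it was 0.73 (adjusted p = 0.0232).

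Lcn2, a secreted siderophore-binding protein of the innate response, is named in the title of the series together with its receptor Slc22a17. Lcn2 stood at 16.9, 21.5 and 15.04 CPM with 878, 30.1, 27.3 and 29.9 CPM with 644 and 0.480, 0.147 and 0.193 CPM in control. The 878 libraries lay below all 644 libraries and above all control libraries, but the difference of −0.71 (SE 0.186) did not pass the test (adjusted p = 0.104). It passed without 878 replicate 2 (−0.85, adjusted p = 0.00680). Slc22a17 held 7, 8 and 2 counts with 878, 16, 3 and 11 with 644 and 3, 6 and 3 in control, under the count filter. A fit without the filter gave a difference of −0.76 (SE 0.641, adjusted p = 0.727), so no difference was detectable at this depth.

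Across all genes, 177 of 11739 differed between the siRNAs at an adjusted p under 0.05, which is 1.51% of those tested. Of these, 37 were higher with siRNA 878 (0.315%) and 140 were lower (1.19%). Differences past 2-fold were seen in 56 of the called genes, 4 higher and 52 lower, against 197 of all genes tested. The median size of the called differences was 0.76 on the log2 scale. For each of the 177 genes the 878 libraries lay entirely above or entirely below the 644 libraries, as they did for 2185 of the genes tested (18.6%). Against control, 3697 genes were called with 878 (31.5%) and 3710 with 644 (31.6%), and these comparisons share the control libraries.

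The number of calls depended heavily on single libraries. Without 878 replicate 2, 975 genes were higher and 1098 lower, and all 177 genes kept their call and direction. The siRNA groups of that fit also differ in their deviation with GC content, as given above. With any other siRNA library left out, 12 to 55 genes were called, and with a control library left out, 56 to 100. The GC and length offsets gave 599 higher and 607 lower and kept 171 of the 177. The authors' deposited table, made with DESeq2, listed 256 genes at q under 0.05, 81 higher and 175 lower with 878, among which were 163 of the 177 with the same sign. Called in each of the 9 fits that left out a library were 12 genes: Rab22a, Shtn1, P2rx3, Slc39a4, Smpd3, C3, Pirb, Cd109, Sumf1 and Nfkbia, lower with 878, and Kif3a and Rbm15, higher. Cd109 and Sumf1 are named because they belong to this set.

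**Figure D1:**
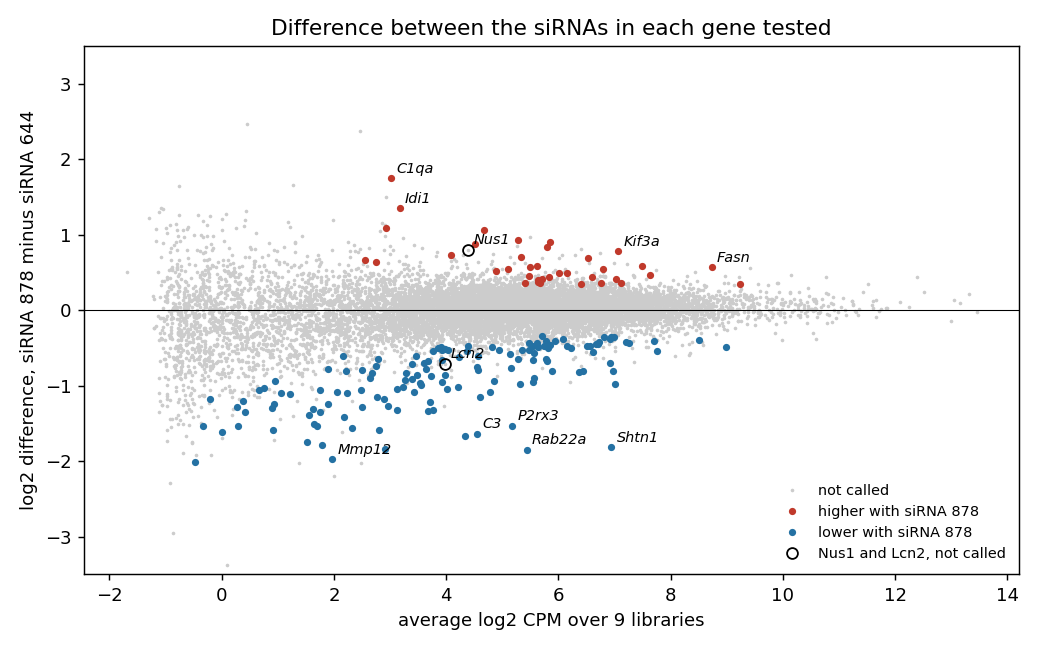
Log2 difference between siRNA 878 and siRNA 644 (vertical axis) against the average log2 CPM over 9 libraries (horizontal axis), 1 point per gene tested. Red and blue points are the 37 genes called higher and the 140 called lower with siRNA 878, grey points were not called, open circles mark Nus1 and Lcn2, and 1 gene lies outside the axis. Most of the called genes with large differences lie below 0.

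The most stable differences were in Rab22a and Shtn1. Rab22a, a small GTPase of early endosomes, stood at 18.5, 17.6 and 17.5 CPM with 878, 65.3, 60.5 and 67.3 CPM with 644 and 48.7, 46.8 and 45.9 CPM in control. The 3 groups did not overlap, and control lay between the siRNAs but nearer to 644. The difference was −1.85 (SE 0.0784, adjusted p = 1.44e-05), made up of a value of −1.40 (SE 0.0778) for 878 against control and 0.45 (SE 0.0751) for 644 against control. Shtn1, which encodes shootin1, a linker between actin and adhesion molecules known from growing axons, had the same order of groups. Its levels were 52.0, 48.7 and 53.1 CPM with 878, 175, 190.4 and 177 CPM with 644 and 141, 128 and 139 CPM in control. The difference was −1.82 (SE 0.0766, adjusted p = 1.44e-05). In 20 alternative fits the differences ranged from −1.89 to −1.78 for Rab22a and from −1.90 to −1.77 for Shtn1 and were called in each.

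P2rx3, Slc39a4 and Smpd3 were also called in all 20 fits, and with Rab22a and Shtn1 they were the only 5 genes called when the 6 siRNA libraries were fitted alone. P2rx3, an ATP-gated cation channel known from sensory neurons, stood at 26.1, 30.5 and 25.0 CPM with 878, 81.9, 75.2 and 78.2 CPM with 644 and 2.495, 3.09 and 3.52 CPM in control. It was above control with both siRNAs, and the 878 level was the lower of the 2 (difference −1.53, SE 0.121, adjusted p = 0.00217). Slc39a4, a zinc importer, was at 1.49, 1.36 and 1.41 CPM with 878, 5.14, 4.64 and 4.50 CPM with 644 and 1.63, 2.26 and 2.36 CPM in control. Smpd3, a neutral sphingomyelinase, was at 1.90, 1.69 and 2.11 CPM with 878, 6.19, 7.01 and 6.57 CPM with 644 and 1.20, 1.96 and 1.49 CPM in control. In both genes the 644 libraries stood above the other 6, and the differences were −1.74 (SE 0.171, adjusted p = 0.00451) and −1.79 (SE 0.180, adjusted p = 0.00451).

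Among the named genes lower with siRNA 878 were C3, Mmp12, Pirb, Hp and Saa3, which were chosen by the size of their difference and not as a group. C3, the central complement component, was at 9.50, 13.3 and 9.26 CPM with 878, 32.9, 32.4 and 34.4 CPM with 644 and 22.9, 28.3 and 27.3 CPM in control. Its 878 libraries lay below all others (difference −1.64, SE 0.153, adjusted p = 0.00427). Mmp12, macrophage elastase, had the lowest difference among the named genes, −1.98 (SE 0.236, adjusted p = 0.00824), with 1.59, 1.13 and 1.56 CPM under 878, 7.35, 4.64 and 5.01 CPM under 644 and 4.75, 3.58 and 4.57 CPM in control. Pirb, an inhibitory immunoglobulin-like receptor of myeloid cells, was at 3.39, 3.62 and 2.57 CPM with 878, 9.55, 9.09 and 9.51 CPM with 644 and 1.78, 2.36 and 2.17 CPM in control, a difference of −1.56 (SE 0.157, adjusted p = 0.00451). The acute-phase genes Hp, which encodes haptoglobin, and Saa3, a serum amyloid A gene, differed by −1.59 (SE 0.262, adjusted p = 0.0268) and −1.34 (SE 0.205, adjusted p = 0.0203). H2-Q4, a class Ib histocompatibility gene, differed by −1.67, the costimulatory ligand gene Cd80 by −1.40, the inhibitory receptor gene Pilra by −1.32 and Treml4, a myeloid receptor gene, by −1.25. Lat and Bank1, adaptors of lymphocyte receptor signalling, differed by −1.54 and −1.52. H2-Q4, Saa3, Pirb, Apol9a and Gsta3 belong to families with similar copies, and the sources used here do not say how the authors' counting split reads between copies.

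The complement genes C1qa and C1qc were higher with siRNA 878. C1qa, a chain of the C1q recognition molecule made by microglia, was at 10.6, 14.9 and 9.86 CPM with 878, 4.41, 2.87 and 3.21 CPM with 644 and 7.39, 10.4 and 8.67 CPM in control. The 644 libraries lay below all others, while the 878 and control libraries overlapped. The difference was 1.75 (SE 0.227, adjusted p = 0.0110), and 1.56 without 878 replicate 2. C1qc, another chain, had 68.4, 85.1 and 66.4 CPM with 878, 42.8, 33.7 and 40.6 CPM with 644 and 53.7, 68.6 and 58.8 CPM in control (difference 0.91, SE 0.140, adjusted p = 0.0203). The remaining chain, C1qb, had a difference of 0.81 that did not pass (adjusted p = 0.0886).

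**Figure D2:**
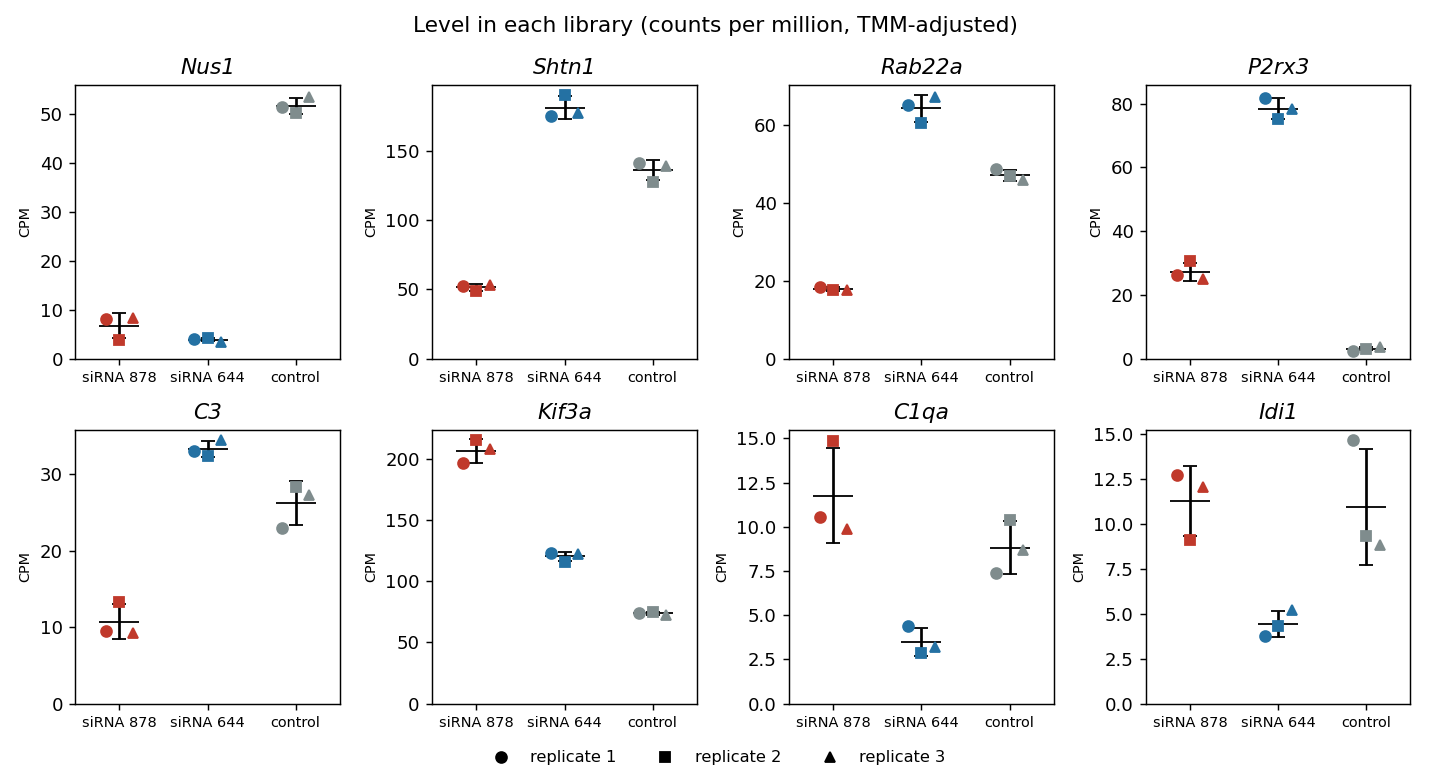
Level of 8 genes in CPM (vertical axes, from 0) in the 3 libraries with siRNA 878, the 3 with siRNA 644 and the 3 control libraries. Symbols mark the replicate number, horizontal lines the mean and vertical bars the SD. Nus1 is low under both siRNAs, with 878 replicate 2 beside the 644 libraries, while for the other 7 genes the siRNAs do not overlap.

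Fewer genes were higher with siRNA 878. Kif3a, a motor subunit of kinesin-2, was at 197, 216 and 208 CPM with 878, 123, 116 and 122 CPM with 644 and 74.2, 74.9 and 72.3 CPM in control. It was above control with both siRNAs, and further with 878 (difference 0.78, SE 0.0663, adjusted p = 0.00262). Rbm15, an RNA-binding partner of the complex that methylates adenosines in mRNA, was at 30.8, 31.3 and 34.0 CPM with 878, 17.2, 16.9 and 18.1 CPM with 644 and 19.8, 17.3 and 20.4 CPM in control. Here 644 and control overlapped and the 878 libraries stood above both (difference 0.88, SE 0.0954, adjusted p = 0.00517). Ptbp2, a splicing regulator, had its 878 libraries above both other groups and its 644 libraries just above control, with a difference of 1.06 (SE 0.142, adjusted p = 0.0121), at 41.1, 31.3 and 46.8 CPM with 878, 18.3, 18.4 and 20.3 CPM with 644 and 18.04, 16.7 and 17.0 CPM in control. Atp9a, a phospholipid flippase gene, differed by 1.09, the palmitoyltransferase gene Zdhhc24 by 0.73 and Kcnk6, a potassium channel gene, by 0.71. Fabp4, a fatty acid carrier, Cbx3, a heterochromatin protein, and Opn3, an opsin, were below control with both siRNAs and less so with 878, with differences of 0.84, 0.69 and 0.67.

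The cholesterol pathway had the highest median difference of the gene lists. All 23 tested members of 25 had a higher fitted value with siRNA 878, with a median difference of 0.41, while 6218 of all 11739 genes tested were above 0 and their median was 0.02. In 12 of the 23 all 878 libraries lay above all 644 libraries, and in 0 below. Over all genes tested these shares were 7.98% and 10.6%. 4 members were called, all higher (0.315% of all genes), among them Idi1, Lss and Nsdhl. Idi1, the isomerase that supplies the units from which farnesyl diphosphate is built, was at 12.7, 9.09 and 12.1 CPM with 878, 3.78, 4.30 and 5.22 CPM with 644 and 14.7, 9.33 and 8.86 CPM in control. Its 878 and control libraries overlapped and the 644 libraries lay below both (difference 1.35, SE 0.235, adjusted p = 0.0302).

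Lss, lanosterol synthase, had 49.9, 50.2 and 49.6 CPM with 878, 31.3, 33.8 and 35.3 CPM with 644 and 53.7, 50.6 and 52.6 CPM in control, a difference of 0.58 (SE 0.0752, adjusted p = 0.0112). Nsdhl, a later enzyme of sterol synthesis, had 50.7, 47.4 and 52.4 CPM with 878, 34.6, 31.7 and 33.9 CPM with 644 and 66.1, 62.7 and 63.3 CPM in control. Both enzymes stood below control with 644, and with 878 Lss lay just under the control libraries. Among members that did not pass, the smallest difference was 0.18 in Sc5d and the largest 0.73 in Cyp51 (adjusted p = 0.0564). Against control the median member value was 0.05 with 878 and −0.38 with 644. The median difference lay between 0.35 and 0.55 in all alternatives, highest without 878 replicate 2, where 15 members were called higher and 0 lower (8.22% and 9.26% of all genes), and DESeq2 called 10 higher and 0 lower (2.23% and 3.25% of all genes). Of the 15 tested genes of fatty acid synthesis, 12 were above 0 (median 0.16) and Fasn, fatty acid synthase, was called, with 538, 520.0 and 554 CPM under 878, 372, 361 and 354 CPM under 644 and 375, 354 and 395 CPM in control (difference 0.57, SE 0.0709, adjusted p = 0.00952). Of the 15, 7 were called higher and 0 lower without 878 replicate 2 (median 0.23).

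**Figure D3:**
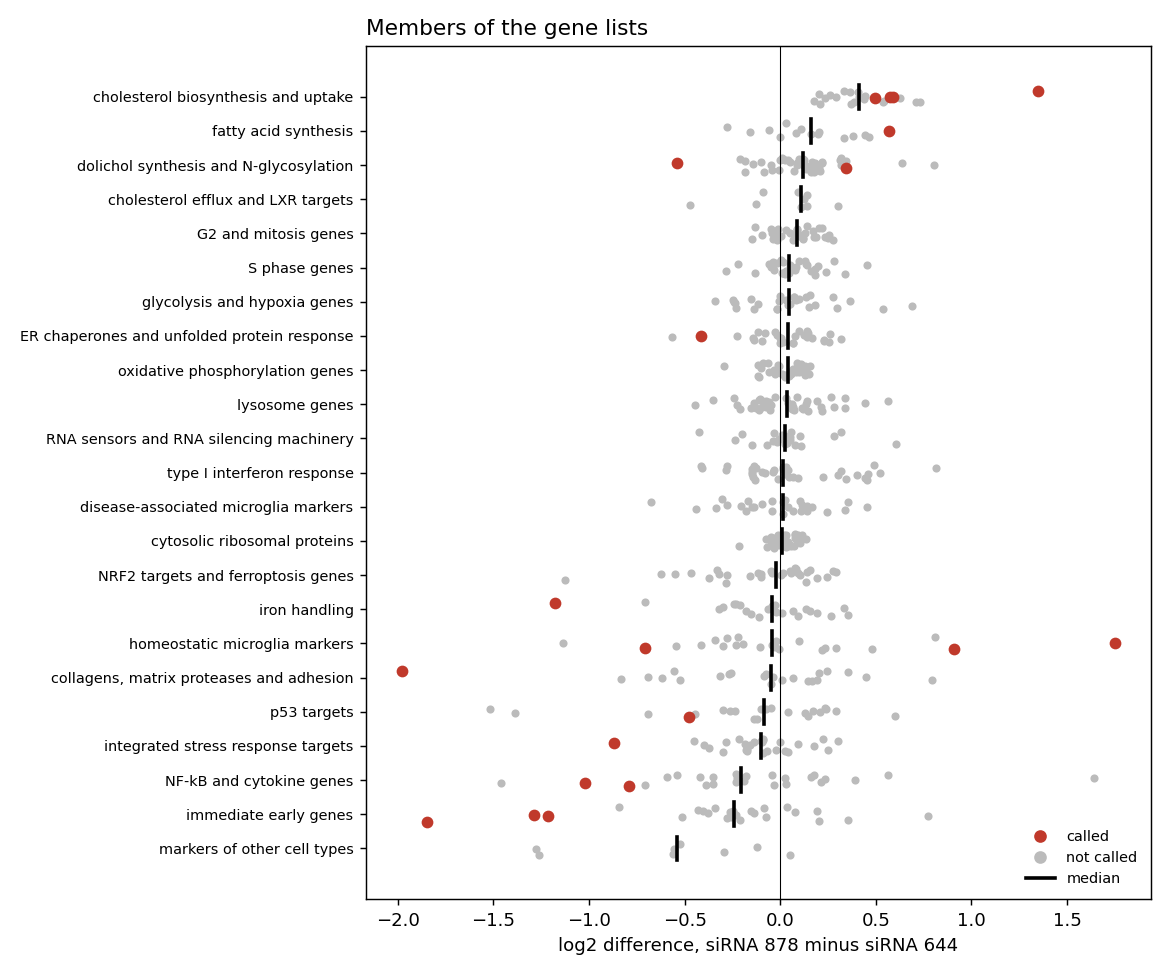
Log2 difference between siRNA 878 and siRNA 644 (horizontal axis) for the tested members of 23 gene lists, 1 row per list and 1 point per gene. Red points were called, grey points were not, and black bars are list medians. All members of the cholesterol list lie to the right of 0, and its median of 0.41 is the highest.

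Immediate early genes, which growth factors and stress switch on within minutes to hours, were lower with siRNA 878 in 3 of 26 tested members and higher in 0, beside 1.19% lower and 0.315% higher over all genes tested. 6 of the 26 lay above 0 (median −0.24), against 6218 of all 11739 genes. DESeq2 called 4 of them lower and 0 higher, beside 3.25% and 2.23% of all genes, and without 878 replicate 2 the counts were 8 lower and 1 higher, beside 9.26% and 8.22% (median −0.25). Dusp1, a phosphatase that turns off MAP kinases, was at 3.13, 2.49 and 4.53 CPM with 878, 11.2, 14.6 and 10.9 CPM with 644 and 6.38, 7.27 and 5.92 CPM in control. Control lay between the siRNAs without overlap (difference −1.85, SE 0.219, adjusted p = 0.00824). Fosl1, an AP-1 subunit, was at 8.83, 11.1 and 9.16 CPM with 878, 23.5, 19.6 and 24.6 CPM with 644 and 7.05, 6.43 and 7.17 CPM in control (difference −1.22, SE 0.130, adjusted p = 0.00517). Klf2, a Krüppel-like transcription factor, differed by −1.29 (SE 0.246, adjusted p = 0.0412). Of 26 NF-kB and cytokine genes, 2 were lower and 0 higher with 878, and 9 lay above 0 (median −0.21). Without 878 replicate 2, 8 were lower and 3 higher (median −0.17), and DESeq2 called 5 lower and 0 higher. The 2 genes were Nfkbia, the inhibitor that holds NF-kB in the cytoplasm, at 16.7, 16.7 and 15.9 CPM with 878, 28.4, 29.3 and 27.5 CPM with 644 and 26.5, 25.8 and 24.8 CPM in control, and Il1rn, the interleukin-1 receptor antagonist. Their differences were −0.79 (SE 0.0799, adjusted p = 0.00451) and −1.02 (SE 0.112, adjusted p = 0.00517). Tnf had a difference of −0.39 that did not pass (adjusted p = 0.0975).

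Genes of dolichol synthesis and N-glycosylation, the pathway of the target itself, numbered 42 among those tested. Of these, 31 lay above 0 (median 0.12), 1 was called higher and 1 lower, beside 0.315% and 1.19% of all genes. The count higher depended on the fit: 4 with the GC and length offsets, 4 with DESeq2, 7 without 878 replicate 2 (median 0.036) and 17 with the log2 level of Nus1 in the fit (median 0.22), with 1 lower in each. Over all genes the same fits, in this order, called 599, 266, 975 and 1801 higher and 607, 387, 1098 and 1836 lower. With the Nus1 level in the fit, 23 of 41 ribosomal proteins were also called higher. Rpn1, a subunit of the oligosaccharyltransferase, had 774, 827 and 797 CPM with 878, 659, 613 and 617 CPM with 644 and 395, 382 and 381 CPM in control (difference 0.34, SE 0.0686, adjusted p = 0.0492). Stt3b, a catalytic subunit of the same enzyme, had 192, 179 and 204 CPM with 878, 279.5, 276 and 282 CPM with 644 and 184, 169 and 171 CPM in control (difference −0.54, SE 0.0724, adjusted p = 0.0121). For Stt3b the 878 and control libraries overlapped and the 644 libraries stood above both.

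The median of 28 ER chaperone and unfolded protein response genes was 0.04 between the siRNAs, beside 1.64 for 878 and 1.54 for 644 against control. Herpud1, an ER-associated degradation factor, was the 1 member called, with 246, 245 and 254 CPM under 878, 338, 323 and 330.4 CPM under 644 and 41.4, 47.4 and 41.2 CPM in control (difference −0.41, SE 0.0736, adjusted p = 0.0323). In the fit without 878 replicate 2, 3 ER genes were higher and 2 lower (median 0.079). Of 28 integrated stress response targets, 7 lay above 0 (median −0.10), beside 0.88 for 878 and 0.94 for 644 against control. In 8 of the 28 all 878 libraries lay below all 644 libraries and in 0 above, beside 10.6% and 7.98% of all genes. Pycr1, an enzyme of proline synthesis, was called lower at −0.87 (SE 0.146, adjusted p = 0.0279), and without 878 replicate 2, 4 members were lower and 2 higher (median −0.18). In 23 iron genes the median was −0.04 and Cp was called lower, while without 878 replicate 2 6 genes were lower and 3 higher (median −0.11). Cp, ceruloplasmin, a copper ferroxidase, had 6.16, 6.04 and 7.55 CPM with 878, 14.0, 15.4 and 15.3 CPM with 644 and 0.816, 0.589 and 0.722 CPM in control (difference −1.18, SE 0.129, adjusted p = 0.00517). Plk2 was the 1 called member of 22 p53 targets (−0.48, adjusted p = 0.0412, list median −0.09), and Mmp12 the 1 of 23 matrix genes (median −0.05). The p53 targets had 4 lower and 2 higher (median −0.061) and the matrix genes 5 lower and 1 higher (median 0.090) without 878 replicate 2. The list counts from that fit are to be read beside 9.26% lower and 8.22% higher over all genes.

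Among 23 homeostatic microglia markers, 8 lay above 0 (median −0.04). C1qa and C1qc were called higher and Itgam, the CD11b integrin, lower, at 101, 72.1 and 97.7 CPM with 878, 140.1, 163 and 139 CPM with 644 and 118, 122 and 138 CPM in control (difference −0.71, SE 0.135, adjusted p = 0.0412). Without 878 replicate 2 the Itgam difference was −0.56, and 4 of the markers were higher and 4 lower, beside 8.22% and 9.26% of all genes.

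The other 12 lists held 0 calls by edgeR, with 0 to 12 members each at an unadjusted p under 0.05. DESeq2 called 22 of their genes and limma on log2(FPKM + 1) called 11. Over all genes, DESeq2 called 653 of 11923 and limma 370 of 11739. Their medians were 0.11 for 9 cholesterol efflux genes, 0.01 for 35 interferon response genes, 0.02 for 22 RNA sensors and silencing factors, 0.01 for 28 disease-associated microglia markers, 0.05 for 32 S phase genes and 0.09 for 31 genes of G2 and mitosis. They were 0.05 for 28 glycolysis and hypoxia genes, −0.02 for 30 NRF2 and ferroptosis genes, 0.04 for 42 lysosome genes, 0.01 for 41 ribosomal proteins, 0.04 for 36 oxidative phosphorylation genes and −0.54 for the 8 tested markers of other cell types. The 2 largest differences named for each of these lists did not pass. In lipid and lysosome genes they were 0.30 in Soat1, −0.47 in Nr1h3, 0.56 in Ctsh and −0.45 in Smpd1. Among immune and microglial genes they were 0.52 in Ifi44, 0.81 in Ifit3b, −0.68 in Cd52 and 0.46 in Fabp5, and in the RNA sensors 0.61 in Tlr7, an endosomal receptor for single-stranded RNA (adjusted p = 0.174), and −0.43 in Tlr3. Cell cycle genes had 0.46 in Ccne2, 0.34 in Fen1, 0.25 in Kif11 and 0.28 in Prc1. Hypoxia genes had 0.69 in Bnip3, a mitophagy receptor (adjusted p = 0.0511), and 0.54 in Ankrd37, and redox genes −1.12 in Nqo1 and −0.62 in Alox12. Ribosomal and respiratory genes had 0.13 in Rps3, −0.21 in Rps6, −0.29 in Ndufv1 and 0.16 in Ndufa4, and markers of other cell types −1.26 in Tubb3 and −1.28 in Pecam1. Tubb3 and Pecam1 held few counts. Tubb3 had 6, 3 and 5 counts with 878 and 11, 13 and 11 with 644. Pecam1 had 3, 6 and 2 counts with 878 and 8, 10 and 10 with 644. Without 878 replicate 2, Tlr7 had a difference of 0.82 and passed (adjusted p = 0.00419).

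Several of these medians moved when 878 replicate 2 was left out. The median of the ribosomal proteins was then −0.25, that of oxidative phosphorylation −0.11 and that of glycolysis and hypoxia −0.11, each with its sign changed, and the interferon median was −0.020. The RNA sensors had 0.15, G2 and mitosis genes 0.16 and markers of other cell types −0.78. Calls in the same fit, to be read beside 8.22% higher and 9.26% lower over all genes, were 6 higher and 5 lower in lysosome genes, 6 and 0 in G2 and mitosis, 4 and 3 in S phase, 4 and 2 in glycolysis and hypoxia, and 3 and 4 in the interferon response. Disease-associated microglia markers had 2 higher and 5 lower, NRF2 and ferroptosis genes 1 and 4, cholesterol efflux genes 1 and 1, RNA sensors 1 and 0, oxidative phosphorylation 0 and 1, other cell types 0 and 2 and ribosomal proteins 0 and 0.

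Set against control, the called genes fell into 3 orders. In 59 of the 177 (33.3%), siRNA 644 was further from control than 878 in the same direction, the order that Nus1 itself has. In 52 (29.4%) siRNA 878 was the further one. In 66 (37.3%) the control value lay between the siRNAs. Among all genes tested the shares were 43.9%, 40.5% and 15.6%. All of these positions use the fitted values of the same libraries that made the calls, so they describe the genes and carry no test.

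The first order includes P2rx3, Cp, Pirb and Fosl1 above, and Gsta3, a glutathione transferase gene, which stood 1.23 (SE 0.231) above control with 878 and 2.54 (SE 0.217) with 644. The second includes Kif3a, Ptbp2 and Il1rn, along with Cd80, Pgghg, a glucoside hydrolase gene, and the interferon-induced Apol9a. Cd80 stood at −1.41 (SE 0.205) with 878 and −0.01 (SE 0.185) with 644 against control, and Pgghg at −1.36 (SE 0.184) and −0.09 (SE 0.173). Apol9a stood below control with both siRNAs, at −2.75 with 878 and −1.43 with 644. The third order, with control between, includes Rab22a, Shtn1, C3 and Dusp1, and also Mxra8, a cell surface protein that alphaviruses use for entry, and Vgf, a neuropeptide precursor. Mxra8 stood at −0.63 (SE 0.208) with 878 and 0.71 (SE 0.192) with 644. Which of these orders come from the level of Nus1 and which from the siRNA used cannot be told apart in this design. With the log2 level of Nus1 in each library added to the fit, all 177 genes kept their direction and call, but among the siRNA libraries that level mainly sets 878 replicate 2 apart from its replicates.

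**Figure D4:**
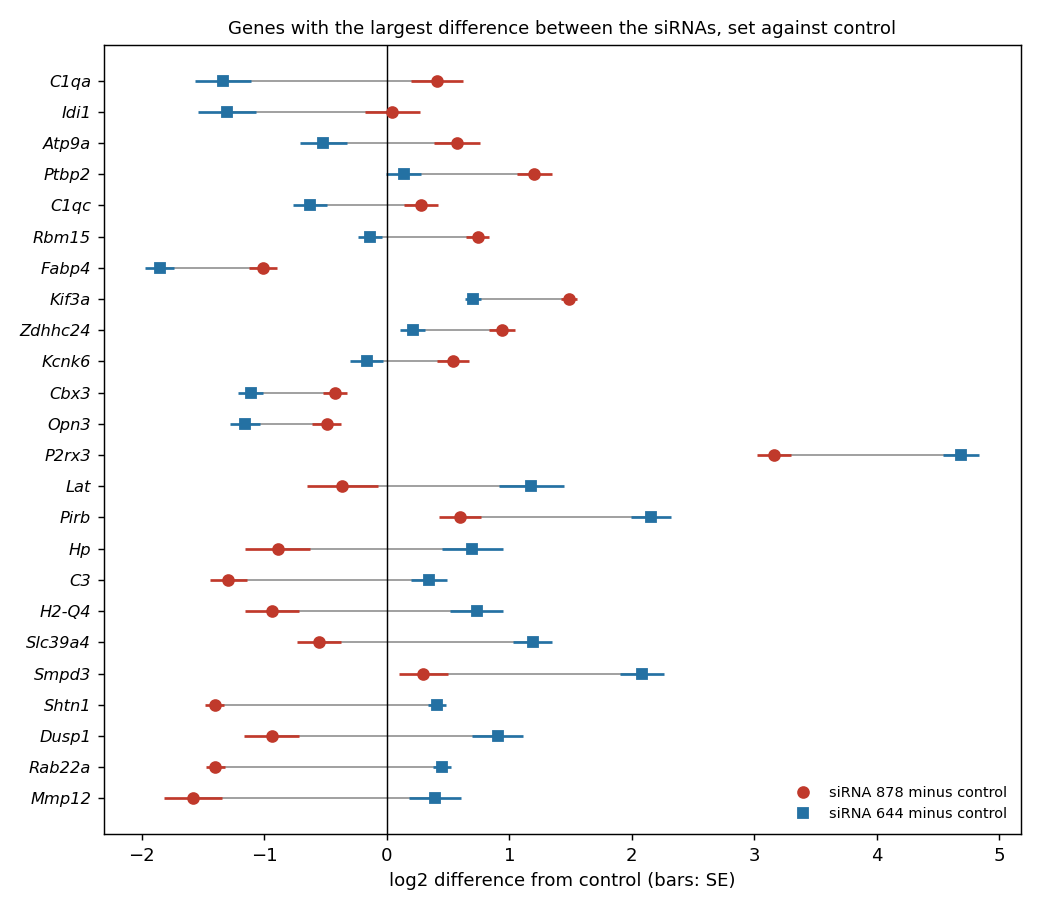
Log2 difference from control (horizontal axis) with siRNA 878 (red circles) and siRNA 644 (blue squares) for the 12 genes with the largest difference between the siRNAs in each direction, with bars for the SE. Grey lines join the siRNAs, and lines that cross 0, as for Rab22a and C3, mark genes with control between them.

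Because each siRNA can pair through its seed with the UTRs of other mRNAs, all 7-base words were looked up in the 3′ UTRs of 11233 tested genes, the longest annotated UTR of each gene from GENCODE M21 on GRCm38. For each of 16073 words present in at least 50 UTRs, the mean shift in the difference between the siRNAs was fitted beside UTR length, GC content and expression. The word with the lowest shift for its error was CCTAGCA, in 1115 genes, with a fitted shift of −0.06 (6.43 SE below 0). The second was CTAGCAA, in 808 genes, with a shift of −0.07 (6.20 SE below 0). Together they spell 8 bases, CCTAGCAA. The words were chosen by this ranking, so the values that follow describe them and carry no test. The SE of a shift is over genes, which share the same libraries and their deviations, so it does not cover the spread between libraries.

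Genes whose UTR holds all 8 bases had a median difference of −0.06 (251 genes), those with the first 7 only −0.02 (864 genes), those with the last 7 only 0.00 (482 genes) and those with neither 0.02 (9636 genes). Against control the genes with all 8 bases had a median of −0.11 with 878 and 0.00 with 644, while the genes with neither had 0.01 and 0.00. Genes with the first 7 only had −0.03 with 878 and −0.05 with 644, so 644 was the lower there. Those with the last 7 only had −0.09 with 878 and −0.06 with 644. UTRs with a word were longer, with medians of 2437 to 2628 bases against 982 bases without. In the ranking for 878 against control the words stood at 55 and 918 from the lowest, and for 644 against control at 11833 and 15196. Leaving out 878 replicate 1, 2 or 3 kept CCTAGCA first, and so did the GC and length offsets, whereas with the Nus1 level in the fit the words ranked 281 and 174. A word was present in 34 of the 137 genes called lower that have an annotated UTR (24.8%) and in 5 of the 34 called higher (14.7%), against 14.2% of all genes. The words next in the ranking, CCCACCC and CCCCTTG, are rich in C and share no such overlap.

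**Figure D5:**
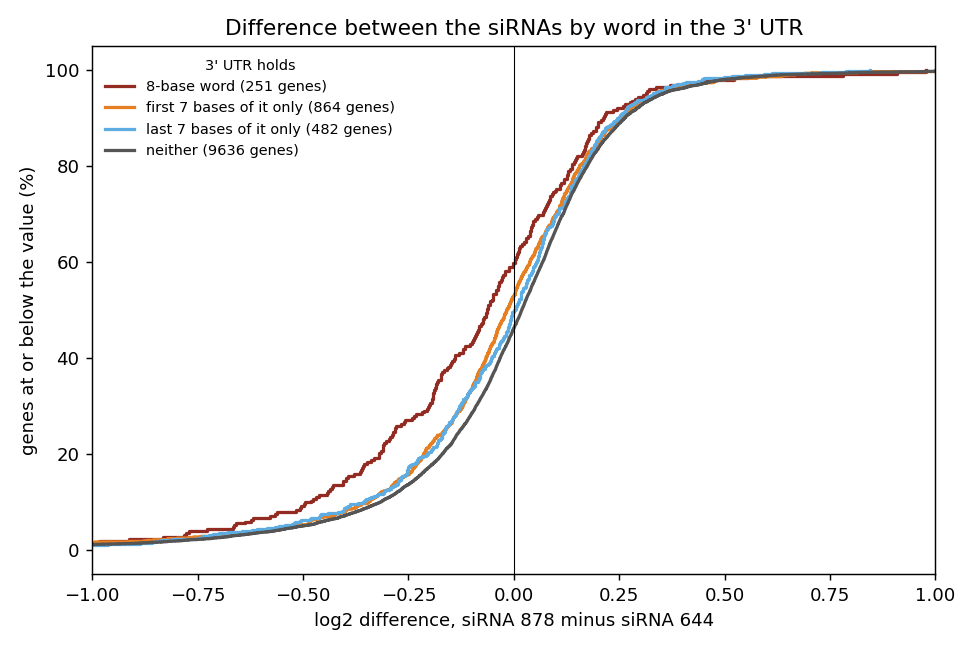
Share of genes in percent (vertical axis) at or below a given log2 difference between siRNA 878 and siRNA 644 (horizontal axis), for genes grouped by the words in their 3′ UTR. The curve of the 251 genes with the 8-base word lies to the left of the curve of the 9636 genes with neither, with medians of −0.06 and 0.02.

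The sites of some called genes are printed with 10 bases on each side and with the word in capitals. They are 4 named genes with 7 bases of the word and Farp1, a guanine nucleotide exchange factor with FERM domains, as a called gene with all 8, chosen after its values were seen. All are written in the direction of the mRNA on GRCm38.
Rab22a, chr2:173701890-173701916, plus strand: ctgtgagctgCCTAGCAtatgtaaatt
Mmp12, chr9:7360108-7360134, plus strand: taagttatgtCCTAGCAgttaagattc
Pirb, chr7:3712615-3712641, minus strand: tgccaggatgCCTAGCAgagacctcca
Cd80, chr16:38494525-38494551, plus strand: acttcagaaaCCTAGCActaccctggc
Farp1, chr14:121282443-121282470, plus strand: tagaatgaagCCTAGCAAaatccacacc
Farp1 was at 35.4, 35.2 and 37.1 CPM with 878, 58.4, 56.8 and 55.8 CPM with 644 and 46.2, 46.0 and 49.6 CPM in control (difference −0.67, SE 0.0715, adjusted p = 0.00517). Shtn1, whose difference was as large as that of Rab22a, holds neither word in its annotated UTR.

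The word CCTAGCA occurs 0 times in the longest annotated Nus1 mRNA, the only Nus1 transcript searched. To pair with CCTAGCA, an siRNA strand would need its reverse complement, TGCTAGG, in its seed. A guide is the reverse complement of its target, so a guide matched along its length to this transcript would not hold TGCTAGG. In the Nus1 mRNA itself TGCTAGG occurs at bases 881 to 887 of 4605, within the coding region at 196 to 1089. It occurs again in the UTR at bases 2270 to 2276. An siRNA made for such a site would carry TGCTAGG in its sense strand, the partner of the guide. The coding site is printed with the word in capitals.
Nus1, chr10:52430189-52430215, plus strand: gatgtagatcTGCTAGGcagcttactt
The reverse complement of the other word, CTAGCAA, occurs 0 times in this mRNA, so that of all 8 bases does not occur either, while that of CCCACCC, the next word in the ranking, occurs 2 times. Such a match is common, since 3591 of the 16073 words (22.3%) have their reverse complement somewhere in this mRNA. Without the siRNA sequences, it is not known which site either siRNA was made for, and pairing with either strand was not tested.

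The promoters of the same genes, taken from RefSeq on GRCm38.p6 as 250 bases before to 50 after each start, were searched on both strands for 5 motifs, for 9485 tested genes with a promoter. The sterol regulatory element TCACNCCAC was in 1 of 17 cholesterol genes, Hmgcs1, against 1.30% of all genes, in 1 of 26 called higher and in 3 of 108 called lower. Hmgcs1, which encodes an early synthase of the pathway, had a difference of 0.39 that did not pass the edgeR test (adjusted p = 0.442). Its site is printed with the motif in capitals.
Hmgcs1, chr13:119690204-119690232, plus strand: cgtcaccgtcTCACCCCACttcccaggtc
The element TGATGNAA of ATF4 was in 3 of 26 genes called higher, including Idi1, and in 10 of 108 called lower, including Herpud1 and Pycr1, against 2.89% of all. The AP-1 site TGANTCA was in 1 of 26 and 13 of 108 against 6.21%, the interferon-stimulated response element in 0 of 26 and 9 of 108 against 3.88%, and the ER stress response element in 0 of 26 and 0 of 108 against 0.148%. These are matches of letters in a window and were not tested.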

How the data were processed

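RNA of 9 BV2 libraries in 3 groups of 3 was analysed from 1 deposited table. It held estimated counts per gene made by the authors, of which 37.4% of nonzero values were not whole within 1e-09, and FPKM values made by the authors. Per the file headers it also held log2 fold changes and q-values of the authors' comparisons. Bowtie2 2.4.5, DESeq2 1.34.0 and mm39 are named in the submitters' processing notes. The sources used here do not give the counting tool, strand setting or annotation. The table's gene coordinates match RefSeq of GRCm38.p6 for 12052 of 16347 genes (73.7%), so their build is open and none is printed. The 9 per-sample columns of TPM and 9 columns of averages were not used. Some genes are not reported here.

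Groups came from the sample titles. Estimated counts were rounded and filtered by filterByExpr (minimum count 10, minimum total 15), which kept at least 99.957% of counts in each library. Genes were tested with edgeR 4.0.16 in R 4.3.3 (TMM factors 0.898 to 1.04, quasi-likelihood F-test over 9 libraries with group as the only term) and adjusted by Benjamini-Hochberg over 11739 genes, called under 0.05. The SE was the log2 difference divided by the square root of F, and the biological coefficient of variation was 14.9%. CPM are TMM-adjusted. Depth limits precision mainly for genes at few counts.

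Members, gene lists and tests were chosen with earlier results of these data known, and the word and motif searches were chosen while looking at the data. Named were Nus1, Lcn2 and Slc22a17, the 12 largest called differences per direction at an average log2 CPM of at least 1, up to 4 more per order against control, and up to 4 called members per list or the 2 largest where none was called. Lists are described by counts and medians, with no test. For words, differences were clipped at 2 on the log2 scale and UTRs under 30 bases left out.

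Alternatives were RLE normalization, library sizes alone, no filter, 1 CPM in 3 libraries, only the 6 siRNA libraries, a replicate block, offsets for GC content and transcript length (available for 97.6% of genes), the Nus1 level as a covariate, limma 3.58.1 on log2(FPKM + 1) and log2(FPKM + 0.1), DESeq2 1.42.0, and leaving out each of 9 libraries. The offsets without 878 replicate 2 were added after seeing the data. On simulated data of 11649 genes for 878 against 644, 26.9%, 76.1% and 95.5% of genes changed 1.5-, 2- and 4-fold were recovered, with 4 false calls. The simulated libraries held no deviation shared across genes, such as that with GC content, so these rates do not cover such deviations. In shuffled differences, 10 of 10 planted words ranked lowest. The planted shift was larger than the shifts fitted for the words reported here, and shuffling removed deviations shared across genes. This recovery therefore does not cover shifts as small as those reported, or such deviations.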

Additional observations from a re-analysis of the deposited data

How the results depend on the processing

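The call count of 177 genes, 37 higher and 140 lower with siRNA 878, was unstable: 5 genes were called in all 20 alternatives, and the cause of the changes was not tested. Fitted alone, the 6 siRNA libraries gave 5 calls, 0 higher and 5 lower with edgeR (507 and 758 at an unadjusted p under 0.05). Library sizes alone gave 300 (248 lower), GC and length offsets 1206 (599 higher, 607 lower), the Nus1 level as a covariate 3637 (1801 and 1836), limma 370 on log2(FPKM + 1) (68 and 302) and 323 on log2(FPKM + 0.1) (62 and 261), and DESeq2 653 (266 and 387). With no count filter 22 were higher. Leaving out 1 library gave 12 to 2073 calls, 2 to 975 higher and 10 to 1098 lower, with both highest values without 878 replicate 2. That step combined with the GC and length offsets, added after seeing the data, gave 2982 calls, 1582 higher and 1400 lower.

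Same-numbered 878 and 644 libraries deviated from their group means with r of −0.365, −0.610 and −0.199 across genes. These values also carry each library's deviation with GC content, so they cannot tell whether the numbers pair the libraries. The replicate block gave 14 calls, 2 higher and 12 lower.

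Nus1 kept its direction, with 0.61 to 1.10 when 1 library was left out, and passed with GC and length offsets (0.73), without 878 replicate 2 (1.10) and with both (0.88). Of the values of named genes, 1213 kept direction and side of the threshold, 63 newly passed, 314 no longer passed and 8 reversed, all in genes that had not passed. These were Ccne2 (−1.55), Kif11 (−0.22) and Soat1 (−0.16) with the Nus1 covariate, Ndufa4 (−0.0176) and Rps3 (−0.18) without 878 replicate 2, beside highest values of 0.27 and 0.30 without 878 replicate 3, and Ndufa4 (−0.12), Rps3 (−0.21) and Rps6 (0.0385) with the offsets as well. List medians moved by more than the spread between libraries in 24 values and by less in 459. Differences in genes with few counts, such as Slc22a17, were not detectable.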
